A study of Mus musculus with 10 samples.

Results

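Fibrinogen and acute-phase protein genes were followed in the kidney cortex of diabetic db/db mice and their non-diabetic db/m littermates. The set was a fixed list of 10 genes, namely the fibrinogen chains Fga, Fgb and Fgg, the serum amyloid A genes Saa1, Saa2 and Saa3, the orosomucoid genes Orm1 and Orm2, haptoglobin (Hp) and hemopexin (Hpx). Each was found through its Entrez Gene ID, and all 10 of 10 had a row among the 16475 genes of the table. The db/db group held 5 untreated mice of the BKS background aged 24 weeks, a strain that becomes obese and diabetic because both copies of the leptin receptor gene Lepr are mutated. The db/m group held 5 untreated littermates of the same background and age, which as the name is generally used carry 1 mutated copy. The study asked how metabolism differs in tissues affected by diabetic complications. All cortices had been depleted of glomeruli before RNA extraction. One Affymetrix array was run per animal, and levels are given on a log2 scale. Sex is not given in the labels. The mutation is body-wide, so db/db kidneys were exposed to the obesity and diabetes of the whole animal.

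Acute-phase proteins are plasma proteins whose synthesis in the liver rises within hours of injury or infection. Interleukin-6, acting through the factor STAT3, drives fibrinogen and haptoglobin, while interleukin-1 together with interleukin-6, acting through NF-kB and C/EBP factors, drives serum amyloid A and orosomucoid. Several of these genes are also switched on in tubule cells of the injured kidney, where fibrinogen chains are known as injury markers. Fibrinogen is the precursor of fibrin in blood clots, serum amyloid A is a lipid-binding protein carried on high-density lipoprotein, haptoglobin binds free hemoglobin and hemopexin binds free heme.

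One library stood apart before any gene was considered. Across all genes, db/db 1 had a Pearson r of 0.938 to 0.962 with the other arrays, while those correlated with each other at 0.985 and above. Its proximal tubule markers had a mean log2 level of 12.58, against 13.26 to 13.28 in the other 4 db/db mice and 13.01 to 13.20 in db/m mice. Differences of the acute-phase genes are therefore given with all 10 arrays and also without db/db 1. They are given without db/db 1 and 2 too. That fit follows the question of which genes were high only in these mice, set with earlier results of these data known. Across all genes db/db 2 stood less far apart than db/db 1. Its highest r with any array was 0.992, against 0.995 to 0.996 for the arrays other than db/db 1 and 2. In db/db 2, 1.41% of all genes were more than 1 log2 unit above the highest db/m mouse. The share was 7.84% in db/db 1 and 0.352% to 0.759% in db/db 3 to 5. Lepr was at 4.48 ± 0.14 in db/db and 4.56 ± 0.09 in db/m mice (SD, n = 5 each), in the dim range of the arrays, and this value does not test for the mutation.

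The 10 genes differed in which mice were high. Fgg and Fgb were above every db/m mouse in all 5 db/db mice. Saa1 and Hp stood more than 1 log2 unit above the highest db/m mouse in db/db 1 and db/db 2 and in no other mouse, whereas Saa2, Saa3, Orm1, Orm2 and Fga did so in db/db 1 alone. Hpx did so in no mouse. The plot of log2 values by mouse shows these patterns gene by gene.

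**Figure D1:**
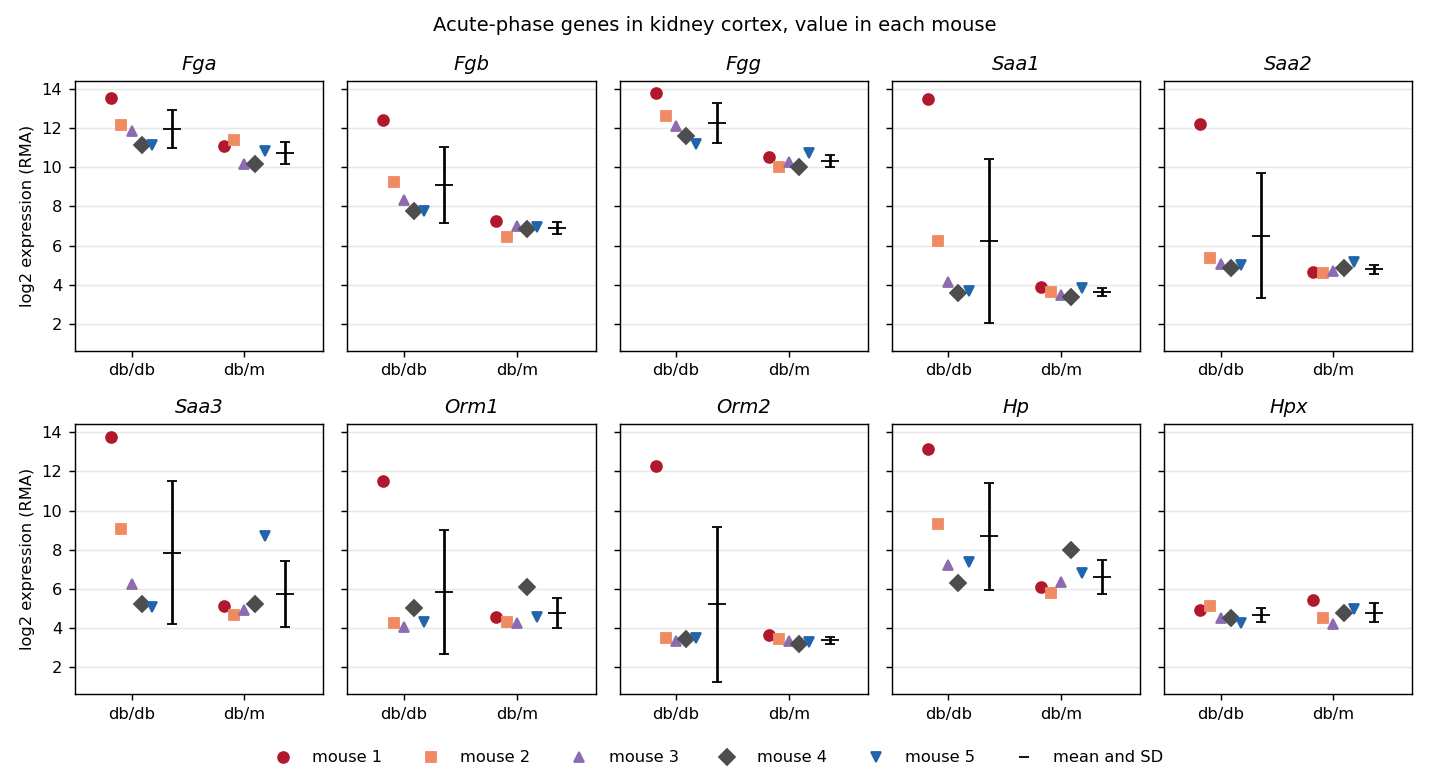
Log2 expression (RMA, vertical axis) of the 10 acute-phase genes in each of 5 db/db and 5 db/m mice, one panel per gene, one symbol per mouse number, with the group mean and SD as a bar. Fgg and Fgb have all 5 db/db mice above all 5 db/m mice, and db/db 1 is the highest of all mice for every gene but Hpx.

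Fibrinogen is built from 3 chains encoded side by side on chromosome 3, in the order Fgg, Fga and Fgb with no other protein-coding gene between them in the RefSeq table. Since Fgg and Fgb were high in the same mice, the 250 bases before the RefSeq start site of each chain gene are shown (GRCm38.p6, each 5′ to 3′ in the direction of its gene). The Fgg window is chr3:83007474-83007723 on the plus strand, the Fgb window chr3:83049864-83050113 on the minus strand and the Fga window chr3:83025903-83026152 on the plus strand. Capitals mark matches on either strand to the motifs searched, which were TTCNNNGAA for STAT factors, CTGGGAA as the core of the interleukin-6 response element, TTGCNNAA for C/EBP, and the NF-kB and HNF1 motifs.
Fgg: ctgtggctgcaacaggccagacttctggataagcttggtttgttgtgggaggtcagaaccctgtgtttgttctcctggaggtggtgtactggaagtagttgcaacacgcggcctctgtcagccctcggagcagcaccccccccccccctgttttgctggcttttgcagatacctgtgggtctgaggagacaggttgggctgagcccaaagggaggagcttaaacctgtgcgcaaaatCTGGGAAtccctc
Fgb: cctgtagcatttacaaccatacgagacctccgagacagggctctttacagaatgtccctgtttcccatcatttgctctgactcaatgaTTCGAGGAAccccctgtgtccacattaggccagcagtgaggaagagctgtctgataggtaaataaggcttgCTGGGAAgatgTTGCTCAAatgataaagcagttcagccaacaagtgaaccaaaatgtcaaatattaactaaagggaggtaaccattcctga
Fga: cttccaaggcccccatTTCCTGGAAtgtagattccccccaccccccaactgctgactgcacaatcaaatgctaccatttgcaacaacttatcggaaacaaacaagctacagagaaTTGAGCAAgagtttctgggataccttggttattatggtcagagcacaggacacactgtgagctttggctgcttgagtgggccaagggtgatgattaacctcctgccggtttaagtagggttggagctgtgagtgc

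The core CTGGGAA occurred 13 bases before the start of Fgg and 91 bases before that of Fgb, counted to its first base. Fgb also held a STAT match at 162 and a C/EBP match at 80 bases before its start, and Fga held a STAT match at 234 and a C/EBP match at 135 bases. Among all 32851 windows of the same length, 9.1% held CTGGGAA, 7.02% the STAT motif, 9.56% the C/EBP motif, 1.41% the NF-kB motif and 0.371% the HNF1 motif. No NF-kB or HNF1 match was in these windows, and the matches describe the letters only.

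Fgg, which encodes the gamma chain, had log2 levels of 13.78, 12.61, 12.12, 11.61 and 11.19 in db/db mice 1 to 5, against 10.53, 10.03, 10.29, 10.02 and 10.71 in db/m mice 1 to 5. The lowest db/db mouse was 0.48 above the highest db/m mouse, so the groups did not overlap. Fgg averaged 12.26 ± 1.00 in db/db and 10.32 ± 0.30 in db/m mice (SD, n = 5 each) and rose by 1.95 ± 0.42 log2 units, a 3.85-fold change (SE; limma with Benjamini-Hochberg adjustment over all genes, adjusted p = 0.0243). Fgg also rose when db/db 1 was left out (1.57 ± 0.27, limma adjusted p = 0.00544) and when db/db 1 and 2 were (1.32 ± 0.23, limma adjusted p = 0.00825). The call was lost without db/db 2, db/db 3, db/m 2, db/m 3 or db/m 4, where the limma adjusted p was 0.0613, 0.0505, 0.0566, 0.0641 and 0.0633 and the difference 1.86 to 1.98.

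Fgb, the beta chain gene, had log2 levels of 12.42, 9.23, 8.33, 7.75 and 7.75 in db/db mice 1 to 5, against 7.26, 6.44, 6.98, 6.86 and 6.96 in db/m mice 1 to 5. Again no db/db mouse reached down to the db/m range, with a gap of 0.49. With all arrays Fgb differed by 2.20 ± 0.79 and did not pass the test (limma adjusted p = 0.135), db/db 1 alone being 5.52 above the db/m mean. Without db/db 1 it rose by 1.36 ± 0.29, or 2.58-fold (limma adjusted p = 0.015), and without db/db 1 and 2 by 1.04 ± 0.19 (limma adjusted p = 0.0111).

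Fga, the alpha chain gene, had log2 levels of 13.53, 12.14, 11.83, 11.16 and 11.15 in db/db mice 1 to 5, against 11.08, 11.38, 10.16, 10.19 and 10.85 in db/m mice 1 to 5. Only db/db 1, 2 and 3 exceeded every db/m mouse, and db/db 4 and 5 lay below db/m 2. The difference was 1.23 ± 0.45 (limma adjusted p = 0.14). With db/db 1 left out it was 0.84 ± 0.30 (limma adjusted p = 0.106), and with db/db 1 and 2 left out 0.65 ± 0.30 (limma adjusted p = 0.226). Without db/m 2 the Fga values of the groups were apart as well, the highest remaining db/m mouse being at 11.08.

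All 3 chains were thus highest in db/db 1, 2 and 3. Relative to the db/m mean, Fgg stood at 3.47, 2.29, 1.80, 1.29 and 0.87 in db/db mice 1 to 5 and Fgb at 5.52, 2.33, 1.43, 0.85 and 0.86, while Fga stood at 2.80, 1.41, 1.10, 0.43 and 0.41. The distance of Fgb above its db/m mean was 2.06 log2 units more than that of Fgg in db/db 1, and differed from it by 0.03, -0.37, -0.44 and -0.02 in db/db 2 to 5. The distance of Fgg exceeded that of Fga by 0.46 to 0.89 in the 5 db/db mice, against -0.93 to 0.54 in db/m mice.

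**Figure D2:**
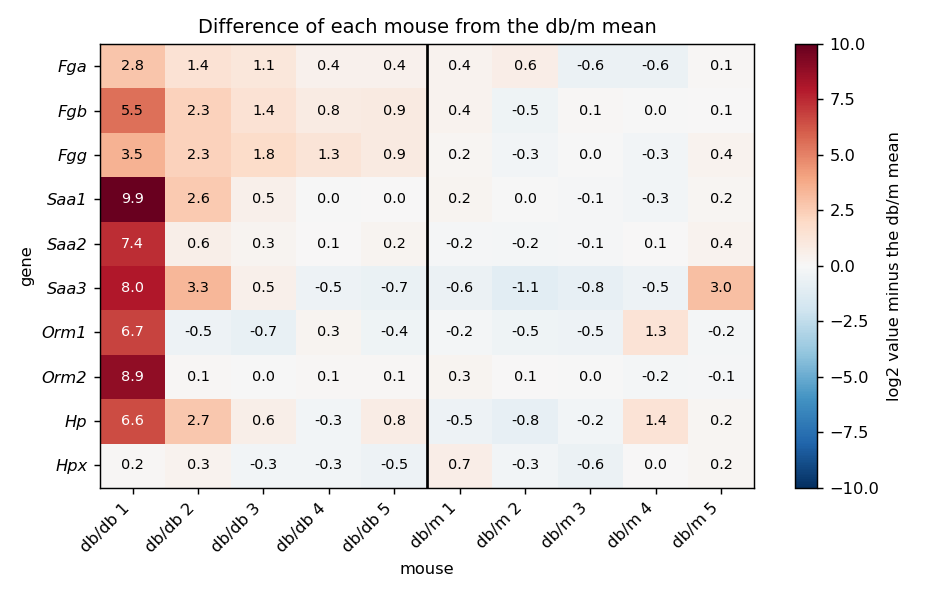
Log2 value minus the db/m mean (colour and printed number) for the 10 genes (rows) in each db/db and db/m mouse (columns). The 5 db/db values of Fgg and of Fgb are at least 0.85 above 0, those of Fga and Saa2 are above 0 with smaller values in db/db 4 and 5, the Saa1 and Hp rows are highest in db/db 1 and 2, and Saa3 in db/m 5 and Orm1 and Hp in db/m 4 stand above the other db/m mice.

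The serum amyloid A genes lie on chromosome 7. Saa1 and Saa2 are near-identical copies that are made mainly in the liver, so probes for one may also bind the other transcript and their separate values are uncertain, whereas Saa3 is known from fat, macrophages and epithelia. Their similarity extends to the windows before the start sites (chr7:46742981-46743230, minus strand, and chr7:46751583-46751832, plus strand, GRCm38.p6), which were 94.8% identical over the aligned 251 columns, against 48.5% for Saa1 and Saa3. The 250 bases are shown in gene direction, with the C/EBP match in capitals, at 182 bases before the start of Saa1 and 183 before that of Saa2.
Saa1: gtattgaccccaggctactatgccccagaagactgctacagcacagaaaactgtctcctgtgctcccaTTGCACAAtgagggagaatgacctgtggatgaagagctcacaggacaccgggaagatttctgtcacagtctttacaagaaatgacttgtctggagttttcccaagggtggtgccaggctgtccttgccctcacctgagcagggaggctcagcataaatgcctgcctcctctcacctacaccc
Saa2: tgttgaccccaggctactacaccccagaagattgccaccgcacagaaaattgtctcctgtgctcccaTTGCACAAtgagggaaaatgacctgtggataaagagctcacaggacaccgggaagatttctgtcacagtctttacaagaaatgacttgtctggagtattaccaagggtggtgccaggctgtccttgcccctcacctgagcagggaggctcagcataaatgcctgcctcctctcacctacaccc

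Saa1 had log2 levels of 13.51, 6.22, 4.14, 3.60 and 3.69 in db/db mice 1 to 5, against 3.88, 3.61, 3.49, 3.36 and 3.83 in db/m mice 1 to 5. All db/m values lay in the lowest 25% of their arrays, and the table holds no detection call, so the 9.88 and 2.59 units by which db/db 1 and 2 exceeded the db/m mean are approximate. Db/db 3 was 0.50 above that mean, and db/db 4 and 5 were at -0.03 and 0.05. The group difference of 2.60 ± 1.67 did not pass (limma adjusted p = 0.41). With db/db 1 left out it was 0.78 ± 0.47 (limma adjusted p = 0.338), and with db/db 1 and 2 left out 0.17 ± 0.16 (limma adjusted p = 0.563).

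Saa2 had log2 levels of 12.20, 5.36, 5.08, 4.85 and 5.02 in db/db mice 1 to 5, against 4.64, 4.58, 4.70, 4.85 and 5.15 in db/m mice 1 to 5. Unlike Saa1 it was only 0.58 above the db/m mean in db/db 2, and the other 3 db/db mice lay within the db/m range. The difference was 1.72 ± 1.27 (limma adjusted p = 0.481), or 0.29 ± 0.14 without db/db 1 (adjusted p = 0.202).

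Saa3 had log2 levels of 13.74, 9.05, 6.23, 5.21 and 5.05 in db/db mice 1 to 5, against 5.12, 4.64, 4.92, 5.21 and 8.71 in db/m mice 1 to 5. The value of db/db 2 was just above that of one non-diabetic mouse, db/m 5. In db/m 5, Saa1, Saa2 and Hp were 0.20, 0.37 and 0.21 above their db/m means, and Saa2 and Fgg were the highest of the db/m mice. As for Saa1, 4 of the 5 db/m values of Saa3 lay in the lowest 25% of their arrays, so its differences are approximate. Without db/m 5 the highest db/m value was 5.21, and db/db 2 and 3 then both stood more than 1 unit above the db/m mice. The difference of 2.14 ± 1.60 did not pass (limma adjusted p = 0.487, or 0.385 without db/m 5). It was 0.66 ± 1.00 with db/db 1 left out (limma adjusted p = 0.745) and -0.22 ± 0.86 with db/db 1 and 2 left out (limma adjusted p = 0.917).

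Orm1 and Orm2 encode alpha-1-acid glycoproteins, plasma carriers of basic drugs and steroids. They lie on either side of Orm3 on chromosome 4, the chromosome that also carries Lepr, and their sequences are so alike that their rows may share signal. Orm2 had log2 levels of 12.25, 3.50, 3.33, 3.45 and 3.48 in db/db mice 1 to 5, against 3.64, 3.43, 3.33, 3.20 and 3.27 in db/m mice 1 to 5. Db/db 1 was 8.88 above a db/m mean that lay at the dim end of the arrays, and the other 4 db/db mice were within the db/m range. The Orm2 difference was 1.83 ± 1.57 with all arrays (limma adjusted p = 0.547) and 0.07 ± 0.09 without db/db 1 (adjusted p = 0.717).

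Orm1 had log2 levels of 11.49, 4.25, 4.06, 5.04 and 4.33 in db/db mice 1 to 5, against 4.58, 4.31, 4.28, 6.11 and 4.58 in db/m mice 1 to 5. After db/db 1 the highest mouse was db/m 4. The difference was 1.06 ± 1.30 (limma adjusted p = 0.682), and without db/db 1 its sign turned (-0.35 ± 0.37, adjusted p = 0.615).

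Hp had log2 levels of 13.16, 9.32, 7.21, 6.32 and 7.37 in db/db mice 1 to 5, against 6.10, 5.77, 6.37, 7.97 and 6.82 in db/m mice 1 to 5. Db/db 1 and 2 exceeded the db/m mean by 6.55 and 2.71, the highest db/m mouse was again db/m 4, and db/db 3 to 5 lay within the db/m range. The difference of 2.07 ± 1.14 did not pass (limma adjusted p = 0.328). It was 0.95 ± 0.60 with db/db 1 left out (limma adjusted p = 0.361) and 0.36 ± 0.47 with db/db 1 and 2 left out (limma adjusted p = 0.709).

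Orm1 and Hp are also made by fat cells, and db/m 4 stood apart in the mean of the adipocyte markers. The 6 of 8 listed adipocyte markers with a row had mean log2 levels of 6.58 to 7.01 in db/db mice, against 8.14 in db/m 4 and 6.65 to 6.73 in the other db/m mice. Adipoq, the adiponectin gene, was at 3.83 to 4.85 in db/db mice, against 8.87 in db/m 4 and 4.13 to 4.63 in the other db/m mice. Lep, the leptin gene, lay in the lowest 25% of all 10 arrays. Of the 6 markers 3 were more than 2-fold above the mean of the other db/m mice in db/m 4. This mouse was also the highest db/m mouse for the lipocalin 2 gene Lcn2 (9.72) and for the mean of a list of tubular injury genes (8.77). Adipoq, Lep and Lcn2 were chosen after their values were seen. The part of any of these genes in the Orm1 and Hp levels of this mouse was not tested. Without db/m 4 the Hp difference was 2.41 (limma adjusted p = 0.342) and the Orm1 difference 1.40 (limma adjusted p = 0.647).

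Hpx had log2 levels of 4.93, 5.11, 4.51, 4.50 and 4.24 in db/db mice 1 to 5, against 5.45, 4.50, 4.18, 4.78 and 4.96 in db/m mice 1 to 5. It lay in the lowest 25% of all 10 arrays, the groups overlapped fully, and db/db 1 was 0.15 above the db/m mean. The difference was -0.12 ± 0.24 (limma adjusted p = 0.817), and a change in so dim a gene may go unseen on these arrays.

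Counted together, 1 of the 10 genes, Fgg, rose and 0 fell at an adjusted p under 0.05, while 2.96% of all genes were called higher and 3.54% lower by limma. At an unadjusted p under 0.05 there were 3, the fibrinogen chains. The groups were apart for 2 of the 10, both higher in db/db, against 4.35% of all genes, and 0 of the 10 had all db/db mice below all db/m mice, against 5.85%. The median of the 10 differences was 1.89, against -0.03 over all genes, and it was 0.72 without db/db 1 and 0.19 without db/db 1 and 2. In both of those fits Fgg and Fgb were called higher and 0 of the 10 lower. Over all genes 6.84% were called higher and 5.93% lower without db/db 1, and 6.0% higher and 5.13% lower without db/db 1 and 2.

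By mouse, 9 of the 10 genes were more than 1 log2 unit above the highest db/m mouse in db/db 1, against 7.84% of all genes. The count was 4 in db/db 2, where 1.41% of all genes were that high, and 2 in db/db 3, where 0.759% were, namely Fgg and Fgb. It was 0 in db/db 4 and 5, against 0.352% and 0.486% of all genes. Height in db/db 1 alone was seen for 5 of the 10 genes and 6.56% of all genes, and height in db/db 1 and 2 and no other mouse for 2 of the 10 and 0.789% of all genes. No member passed this mark in all 5 db/db mice, which 0.0607% of all genes did. Without db/m 5, Fgg passed it in 4 db/db mice, and without db/m 2, Fga passed it in db/db 1 and 2.

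**Figure D3:**
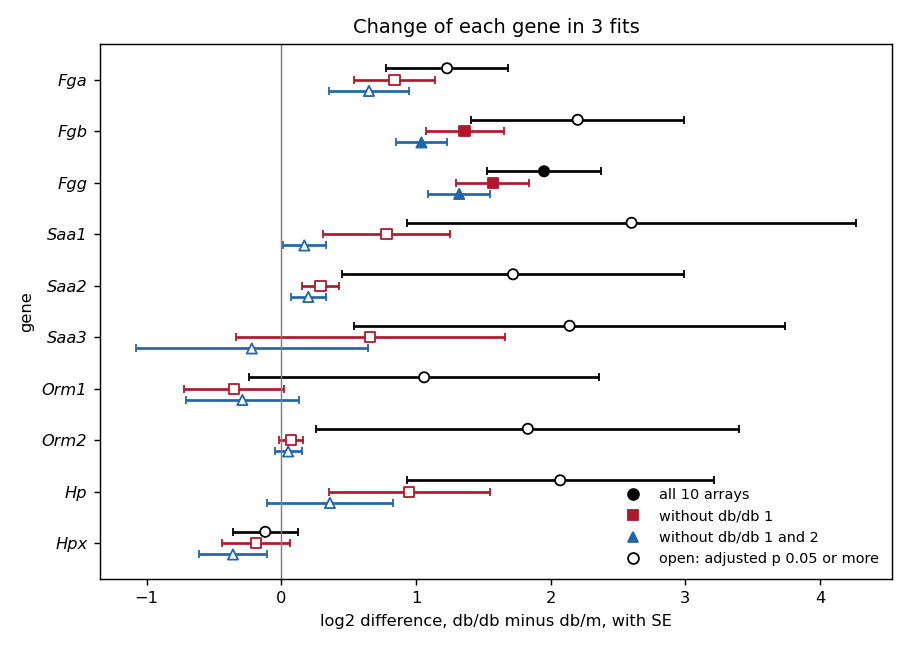
Log2 difference, db/db minus db/m, with its standard error (horizontal axis) for each gene from limma fits on all 10 arrays (black), without db/db 1 (red) and without db/db 1 and 2 (blue), filled where the adjusted p was under 0.05. Fgg is filled in the 3 fits and Fgb where db/db 1 is left out, whereas the serum amyloid A, orosomucoid and Hp differences shrink towards 0, with Orm1 and Saa3 passing below it.

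Other acute-phase genes were read from a list of 20, of which 16 had a row. The median difference was 0.40 with all arrays, 0.09 without db/db 1 and -0.05 without db/db 1 and 2, against -0.03 over all genes with all arrays. By limma 0 passed with all arrays, against 2.96% of all genes called higher and 3.54% lower. Without db/db 1, 1 was called higher, the lipopolysaccharide binding protein gene Lbp, and over all genes 6.84% were. Lbp had log2 levels of 8.89, 7.01, 7.07, 6.96 and 7.12 in db/db mice 1 to 5, against 6.23 to 6.74 in db/m mice. It was above every db/m mouse in all 5 db/db mice, like Fgg, Fgb and 4.35% of all genes. The difference was 0.98 ± 0.34 with all arrays (limma adjusted p = 0.127) and 0.61 without db/db 1 (adjusted p = 0.00504). Lcn2, which encodes the iron-siderophore binding protein lipocalin 2, was at 14.07, 12.07, 11.57, 7.48 and 6.79 in db/db mice 1 to 5, against 6.17 to 9.72 in db/m mice, with db/m 4 the highest of these. Crp, the C-reactive protein gene, and Hamp, the gene of the iron hormone hepcidin, were in the lowest 25% of every array. Lcn2, Crp and Hamp were chosen after their values were seen.

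Of 7 plasma protein genes that fall in the liver acute phase, 1 rose and 0 fell by limma with all arrays, against 2.96% and 3.54% of all genes. Trf, the transferrin gene, was at 10.69, 9.91, 9.80, 9.45 and 9.82 in db/db mice 1 to 5, against 8.50 to 9.13 in db/m mice. It rose by 1.06 ± 0.21 (limma adjusted p = 0.0168) and by 0.87 without db/db 1 (adjusted p = 0.00328). The median of the list was 0.22, or 0.45 without db/db 1.

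Among the cytokines and factors that act on acute-phase genes no gene passed with all arrays, against 2.96% of all genes called higher and 3.54% lower. In the interleukin-6 and STAT3 list 0 of 18 genes were called by limma (median 0.09, or -0.04 without db/db 1). Without db/db 1, 1 of the 18, Stat3 itself, was called higher, a share near the 6.84% of all genes called higher in that fit. Stat3 was at 11.75, 11.12, 10.67, 10.57 and 10.48 in db/db mice 1 to 5, against 10.17 to 10.37 in db/m mice. The groups did not overlap, and 4.35% of all genes were likewise apart with db/db higher. The Stat3 difference was 0.66 ± 0.22 (limma adjusted p = 0.107), 0.45 with db/db 1 left out (limma adjusted p = 0.0385) and 0.32 with db/db 1 and 2 left out (limma adjusted p = 0.0316). In that last fit the cytokine gene Ctf1 was also called higher (0.42, limma adjusted p = 0.029) and the oncostatin M receptor gene Osmr lower (-0.42, limma adjusted p = 0.0278). Over all genes 6.0% were called higher and 5.13% lower in it. Il6, the cytokine gene, was at 8.44 in db/db 1, against 4.11 in db/db 2, 3.12 to 3.15 in db/db 3 to 5 and 2.89 to 3.75 in db/m mice. Socs3, a feedback inhibitor induced by STAT3, was at 11.19, 8.06, 7.37, 6.31 and 5.59 in db/db mice 1 to 5, against 6.24 to 7.31 in db/m mice, so that only db/db 1, 2 and 3 exceeded db/m. Il6, Socs3, Ctf1 and Osmr were chosen after their values were seen.

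In the interleukin-1, TNF, NF-kB and C/EBP list the median difference was 0.61 with all arrays, 0.19 without db/db 1 and 0.03 without db/db 1 and 2. With all arrays 0 of 18 genes were called by limma, with the lowest adjusted p at the interleukin-1 receptor gene Il1r1 (0.59 ± 0.20, adjusted p = 0.119). Without db/db 1, 2 of the 18 genes were called higher, against 6.84% of all genes. They were the NF-kB inhibitor gene Nfkbia (0.52, limma adjusted p = 0.0107) and the factor gene Cebpb (0.39, limma adjusted p = 0.0173). Both had all db/db mice above all db/m mice, against 4.35% of all genes. Il1b, which encodes interleukin-1 beta, was at 12.84, 9.33, 10.02, 6.33 and 5.54 in db/db mice 1 to 5, against 7.04 to 7.70 in db/m mice, so db/db 4 and 5 lay below every db/m mouse. Nfkbia, Cebpb and Il1b were chosen after their values were seen. The hepatocyte and tubule factor list had 5 of 7 genes with a row and 0 called (median 0.23), Foxa1 having the lowest limma adjusted p (0.66 ± 0.24, adjusted p = 0.131) and lying in the lowest 25% of every array.

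The list of partners of fibrin held 17 genes with a row, of which 1 rose and 1 fell (median 0.25, or 0.07 without db/db 1). Over all genes 2.96% rose and 3.54% fell. Plat, the tissue plasminogen activator gene, rose by 0.55 ± 0.10, to 10.58 ± 0.18 in db/db against 10.03 ± 0.14 in db/m mice (SD, n = 5 each; limma adjusted p = 0.0139). Serpinf2, which encodes the plasmin inhibitor alpha-2-antiplasmin, fell by 0.69 ± 0.13, to 12.27 ± 0.30 in db/db against 12.96 ± 0.11 in db/m mice (limma adjusted p = 0.0165). Both passed without db/db 1 as well, at 0.50 and -0.56 (limma adjusted p = 0.00934 and 0.00256). Serpinf2 lost its call without db/m 3 (limma adjusted p = 0.0503).

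Of 13 genes for heme and hemoglobin handling 0 were called by limma (median 0.05), and the iron exporter gene Slc40a1 had the lowest adjusted p (0.32 ± 0.12, limma adjusted p = 0.162). Of 7 receptors that can bind serum amyloid A, 1 fell, against 3.54% of all genes (median 0.40, or 0.17 without db/db 1). Cd36, a scavenger receptor and fatty acid transporter, was at 9.91, 10.02, 9.46, 10.19 and 10.84 in db/db mice 1 to 5, against 11.96 to 12.48 in db/m mice, a fall by 2.12 ± 0.22 (limma adjusted p = 0.000739).

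Markers of cells that could carry acute-phase transcripts moved with part of these values. The 10 of 12 neutrophil markers with a row had mean log2 levels of 10.08, 7.48, 6.74, 5.47 and 5.40 in db/db mice 1 to 5, against 5.42 to 5.86 in db/m mice. The 11 macrophage markers averaged 12.16, 9.97, 8.57, 8.38 and 8.10 in db/db mice 1 to 5, against 8.87 to 9.09 in db/m mice. Both lists were thus highest in db/db 1 and 2, as the fibrinogen chains, Saa1, Saa2, Saa3 and Hp were. The neutrophil list was above every db/m mouse in db/db 3 as well, whereas macrophage markers in db/db 3 to 5 lay below every db/m mouse. No neutrophil or macrophage marker passed with all arrays. Without db/db 1 and 2, 7 of the 11 macrophage markers were lower in db/db, against 5.13% of all genes, and 0 of the 10 neutrophil markers passed. In that limma fit Fgg and Fgb were higher by 1.32 and 1.04. The part of these cells in the acute-phase values, fibrinogen included, was not tested. In whole tissue, more cells of a type and more RNA per cell cannot be told apart.

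The mean of the hepatocyte markers was lowest in db/db 1, where all 10 acute-phase genes but Hpx were highest. The 10 of 11 with a row averaged 7.63 in db/db 1 and 8.02 to 8.11 in db/db 2 to 5, against 7.71 to 8.11 in db/m mice, and Cyp2c29, Cyp3a11, Tat and F2 were in the lowest 25% of every array. Alb, the albumin gene, was at 6.63 in db/db 1, against 10.07 to 11.02 in db/db 2 to 5 and 9.56 to 10.83 in db/m mice. Of these 10 markers 1 was called higher with all arrays, against 2.96% of all genes. It was Apob (0.73, limma adjusted p = 0.0147), which tubule cells also express. The median of the list was 0.18 with all arrays, 0.39 without db/db 1 and 0.29 without db/db 1 and 2. In each of the last 2 fits, 2 markers were called higher and 1 lower. Over all genes 6.84% and 5.93% were without db/db 1, and 6.0% and 5.13% without db/db 1 and 2. The hepatocyte markers named here were chosen after their values were seen. Podocyte markers differed too although glomeruli had been depleted: 3 of the 5 with a row rose (median 0.46), against 2.96% of all genes. The list averaged 9.05 to 9.44 in db/db mice, above all 5 db/m mice. The part of hepatocyte or podocyte genes in the acute-phase values was not tested.

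The list of tubular injury genes was also highest in db/db 1, 2 and 3. It averaged 12.33, 9.70, 9.07, 8.46 and 8.52 in db/db mice 1 to 5, against 7.86 to 8.77 in db/m mice, db/m 4 being the highest db/m mouse. Of 11 genes 4 rose and 0 fell, against 2.96% and 3.54% of all genes. The groups were apart, with db/db higher, for 5, against 4.35% of all genes. The median difference was 1.17 with all arrays, 0.40 without db/db 1 and 0.38 without db/db 1 and 2. The 3 largest changes among those called were those of the keratin genes Krt19 (1.92 ± 0.42, limma adjusted p = 0.0261) and Krt18 (1.17 ± 0.22, limma adjusted p = 0.0131) and of the cell cycle inhibitor gene Cdkn1a (1.77 ± 0.34, limma adjusted p = 0.0154). Krt19 kept its call in 4 of 10 fits with 1 array left out, its limma adjusted p reaching 0.0727 without db/m 3. The part of tubular injury in the acute-phase values, fibrinogen included, was not tested.

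**Figure D4:**
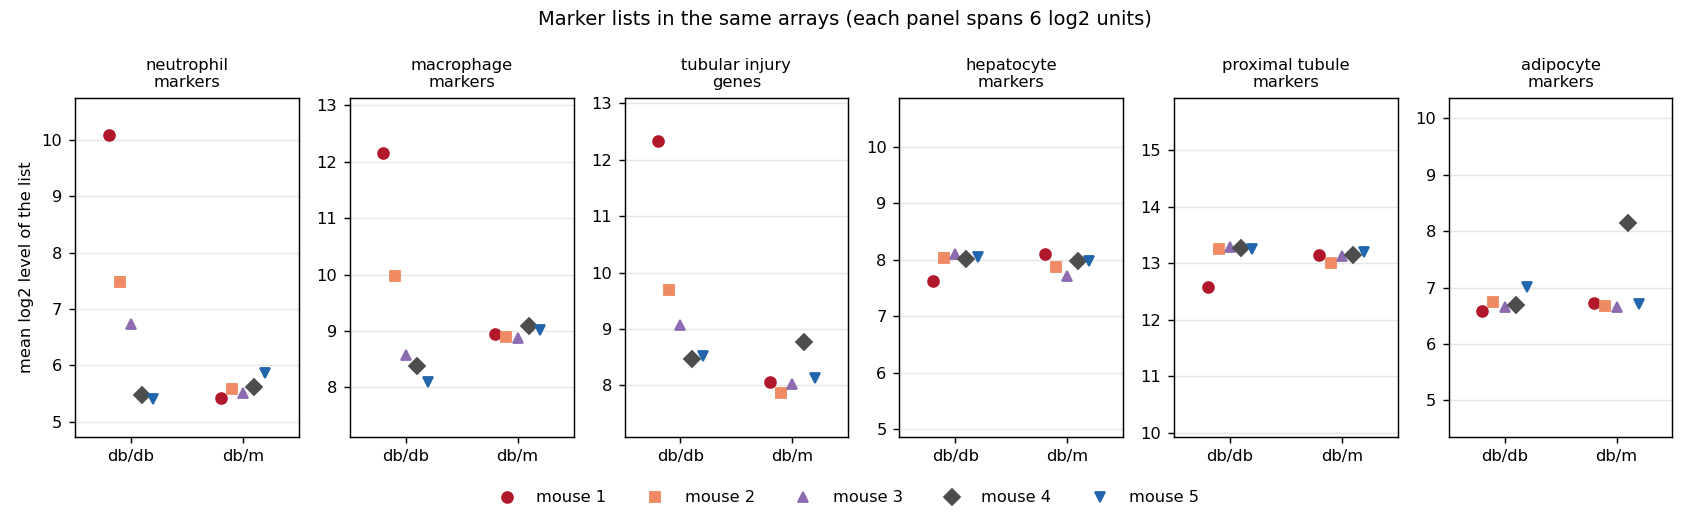
Mean log2 level of 6 gene lists (one panel each, every panel spanning 6 log2 units) in each db/db and db/m mouse, one symbol per mouse number. Neutrophil, macrophage and injury lists are highest in db/db 1 and next in db/db 2, hepatocyte and proximal tubule lists are lowest in db/db 1, and the adipocyte list stands out in db/m 4.

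Genes whose values followed the acute-phase genes most closely were found by the root mean square difference of their distances from the db/m mean over the 10 arrays, in log2 units. Nearest to Fgg were Masp1, a complement lectin pathway protease gene (0.29), Cdkn1a (0.36) and H2-DMa, which encodes a peptide loading factor of antigen presentation (0.40). Masp1 had 8.57, 7.88, 7.30, 6.99 and 6.69 in db/db mice 1 to 5, against 5.20 to 5.58 in db/m mice. H2-DMa had 12.75, 11.86, 11.11, 10.12 and 9.51 in db/db mice 1 to 5, against 9.25 to 9.84 in db/m mice, so its groups overlapped in db/db 5. Since these genes were picked for values close to those of Fgg on the same arrays, their group differences restate that choice.

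Nearest to Fgb were Apoc2, the activator of lipoprotein lipase (0.31), Pla2g7, the platelet-activating factor hydrolase gene (0.39), and the sphingomyelinase-like gene Smpdl3b (0.41). Apoc2 had 12.35, 8.33, 7.33, 7.44 and 7.75 in db/db mice 1 to 5, against 5.93 to 6.81 in db/m mice. Here too the choice by likeness to Fgb fixes how the groups differ.

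For Saa1, Saa3 and Hp the distances to the nearest genes were larger. Nearest to Saa1 were the macrophage lectin gene Chil3 (0.77), the interleukin-36 gene Il1f6 (0.78) and the arginase gene Arg1 (0.79). Nearest to Saa3 were the receptor genes Clec4e (1.08) and Fpr2 (1.18) and Wfdc21 (1.15), and nearest to Hp were Il1f6 (0.55), the protease inhibitor gene Serpina3n (0.68) and the fibrin crosslinking factor gene F13a1 (0.69). Il1f6 was at 12.00, 6.95, 4.64, 4.28 and 4.41 in db/db mice 1 to 5, against 3.83 to 5.06 in db/m mice, with db/m 4 the highest db/m mouse as for Hp. All 8 were highest in db/db 1, which restates their choice by likeness to genes that were highest in that mouse. All genes compared share the same 10 arrays.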

How the data were processed

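Expression was measured in glomerulus-depleted kidney cortex of 5 db/db and 5 db/m mice, 1 Affymetrix array each, grouped by their titles. The deposited table holds log2 values, 1 per Entrez Gene ID, which were used as given. The submitters' processing notes name RMA (version not given in the sources used here), which includes quantile normalisation and compresses differences of dim genes. The table gave no detection calls. Arrays give no counts, so their number limits the precision. Array medians were 8.46 to 8.66, and no 2 arrays were copies.

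Of 16539 rows, 64 control rows were left out and 16475 genes were tested. Of these 15780 had 1 symbol in the supplied platform annotation and 0 had several, while 695 were tested but not named. The groups were compared with limma 3.58.1 (R 4.3.3; lmFit, eBayes, two-sided, no dim filter), adjusted with Benjamini-Hochberg over all genes at a threshold of 0.05. The fit was tested on simulated data. Lists are described by counts and medians. Promoter windows came from the RefSeq table (GRCm38.p6), which held 8 of the 10 genes, with Biopython 1.88 for identity.

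Members and lists were chosen with earlier results of these data known. The rule for named genes took the 10 members, Lepr, up to 3 called genes with the largest change per list or the gene with the lowest adjusted p, and the 3 genes nearest to each of Fgg, Fgb, Saa1, Saa3 and Hp, cell marker lists being left out of it. Genes named outside the rule are marked. No label ties the mouse numbers of the groups together. P-values assume that the mice, numbered separately in the titles, are independent animals. Alternatives were the mouse number as a block, each array left out, db/db 1 and 2 left out, array weights, trend and robust settings, quantile normalisation repeated, median centring, and the lowest 25% of genes by mean left out.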

Additional observations from a re-analysis of the deposited data

Results flagged for a closer look

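For 5 mice the gap between an extreme value and its nearest neighbour was divided by the range of the group, and a share above 0.71 marked the value as standing apart, which chance does in about 1 of 20 groups. Among all genes 16.2% met this in the db/db group, 5.77% with db/db 1 as the high value, and 5.89% met it in the db/m group.

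Of the 10 acute-phase genes 4 had db/db 1 standing apart, with shares of 0.981 for Orm2, 0.930 for Saa2, 0.868 for Orm1 and 0.735 for Saa1. In the db/m group db/m 5 stood apart for Saa3 (0.859) and db/m 4 for Orm1 (0.838).

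Of the 26 other named genes 8 had db/db 1 standing apart, namely Arg1 (0.955), Lbp (0.922), Wfdc21 (0.804), Serpina3n (0.802), Apoc2 (0.800), Krt18 (0.779), Smpdl3b (0.749) and Pla2g7 (0.739). All of these but Lbp and Krt18 were named for their likeness to members that were highest in db/db 1. That choice largely sets the count, so it cannot be read against the share of all genes. The db/m values of Il1f6, Serpina3n and Clec4e entered the same choice. In the db/m group db/m 4 was high for Il1f6 (0.840) and Serpina3n (0.743), db/m 5 for Clec4e (0.781) and db/m 2 for Foxa1 (0.800), and db/m 1 was low for Serpinf2 (0.811).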

How the results depend on the processing

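Members called higher numbered 1 with all arrays, 2 (Fgg and Fgb) with array weights and without db/db 1 and 2, and 0 with the mouse number as a replicate block, where Fgg had a limma adjusted p = 0.0643. The block lowered the counts over all genes to 180 higher and 213 lower, against 488 and 584 without it. The correlation of same-numbered mice was at most 0.01 and 0 of 5 db/db mice correlated best with their own number. These values gave no sign of pairing by number. They cannot exclude it, since there were only 5 mice per group and db/db 1 shifts the db/db mean they were taken from. Over all genes, array weights gave 1346 higher and 1295 lower and leaving out db/db 1 and 2 gave 989 higher and 845 lower, while median centring gave 363 higher and 751 lower. Leaving out 1 array gave 234 (without db/m 3) to 1127 (without db/db 1) genes higher and 256 to 977 lower, with 0 to 2 members called higher and 0 lower. Leaving out db/db 4 or 5 gave 362 and 377 higher and 436 and 457 lower.

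Members apart and higher numbered 2 to 3 when 1 array was left out. Members over 1 log2 unit above the highest db/m mouse numbered 9 in db/db 1, 4 to 5 in db/db 2, 2 to 3 in db/db 3, 0 to 1 in db/db 4 and 0 in db/db 5, and 2 to 4 were high in db/db 1 and 2 and no other. Without dim genes the counts were 5 in db/db 1 and 1 in db/db 1 and 2 alone, since fewer members were left. With a mark of 0.5 units db/db 4 had 1 member, and with a mark of 2 units db/db 2 had 1, db/db 3 had 0 and 1 was high in db/db 1 and 2 alone.

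Signs turned for Orm1 (1.06 with all arrays; -0.35 without db/db 1, with a range of -0.35 to 1.51 over single arrays left out; -0.29 without db/db 1 and 2), and without db/db 1 and 2 for Saa3 (-0.22), Fpr2 (-0.12) and F13a1 (-0.43). With 1 array left out Hpx ranged from -0.27 to 0.05, the highest being without db/m 1. None of these differences had passed, and the cause was not tested. The low brightness of Saa1, Saa2, Saa3, Orm1, Orm2 and Hpx in most or all db/m mice limits the size of their changes.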
